A study of Homo sapiens with 10 samples.

Results

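The enzymes of the tricarboxylic acid (TCA) cycle outside complex II were followed as RNA in leukaemia lines with and without insensitivity to venetoclax (VEN), an inhibitor of BCL-2. The 9 genes are CS, IDH2, IDH3A, OGDH, DLST, SUCLG1, SUCLA2, FH and MDH2. They were listed by symbol and matched to Ensembl identifiers through GENCODE, and all 9 were found among the 63677 gene identifiers of the count files. All 9 passed the filter on low counts, which left 16756 genes for testing.

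The lines were grown from RS4;11, an established B-cell precursor acute lymphoblastic leukaemia (BCP-ALL) cell line. VENins lines are 5 RS4;11 cultures kept under VEN whose concentration was raised in steps to 100 nM over 8 months. VENsens lines are 5 parallel RS4;11 cultures that received the solvent DMSO instead. The study states that VEN was washed away before cells were analysed. Long exposure to VEN and acquired insensitivity cannot be told apart in this comparison. Each line gave 1 RNA-Seq library, so a replicate is a separately grown line of a single parental line, and p-values measure the spread between such lines. Libraries held 38491516 to 52960365 reads, of which 20631907 (VENsens line 2) to 28323643 (VENsens line 3) were counted on genes.

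The TCA cycle oxidises the acetyl group of acetyl-CoA in the mitochondrial matrix and passes the electrons to NADH and to complex II of the respiratory chain. Several of its enzymes are assemblies of different subunits, and some reactions have a second enzyme in the cytosol or with another cofactor. In leukaemia the cycle is known as a source of electrons for respiration and of precursors for synthesis, and IDH2 is known from mutations that change its product.

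The label of the cells was checked against marker genes in units of CPM, counts scaled to a fixed library total after TMM normalization. The 8 B-cell precursor markers summed to 2701 to 2866 CPM in VENsens and 2631 to 2987 CPM in VENins lines, with PAX5 the most abundant. HOXA9, MEIS1 and HOXA10, known from KMT2A-rearranged leukaemia, summed to 317 to 329 CPM and to 318 to 356 CPM. The 4 T-cell markers did not exceed a sum of 1.08 CPM in any library, and the 4 myeloid markers did not exceed 1.32 CPM. TRBC2, a T-cell marker, was at 0 in all 10 libraries. In such bulk samples fewer expressing cells and less RNA per cell cannot be told apart.

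The question asked of the 9 genes was whether any step of the cycle differed in RNA level between VENins and VENsens lines. No member had an adjusted p under 0.05 in edgeR's quasi-likelihood test with Benjamini-Hochberg adjustment over all tested genes, where 33 genes (0.197%) did. At an unadjusted p under 0.05 the count was 2 of 9 members, SUCLG1 and DLST, beside 16.2% of all tested genes. The groups did not overlap in the same 2 of 9 members, beside 4.66% of all tested genes. SUCLG1 was higher and DLST lower in VENins lines, each by a small fold. Log2 fold changes of the 9 members, VENins against VENsens, lay between -0.13 and 0.17. Their median was 0.028 beside 0.0035 for all tested genes. Above 0 were 6 members, beside 51.1% of all tested genes (5 members when scaled by library size alone, where CS changed side). Without the lines numbered 4 the median was -0.011 and 4 members were above 0, and with length and GC trends removed it was 0.052 beside 0.014 for all tested genes.

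The counts of calls differed between combinations of tool and model. Without the line number in the model, edgeR called 0 of 9 members, beside 0.889% of all genes. DESeq2 with the line number called 0 of 9 members, beside 1.69% of the genes to which it gave an adjusted p. DESeq2 without the line number called 2 of 9, beside 6.05%. Those 2 were DLST (adjusted p = 0.0284) and SUCLG1 (adjusted p = 0.035), which over all alternatives ranged from 0.0284 to 0.584 and from 0.035 to 0.594.

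**Figure D1:**
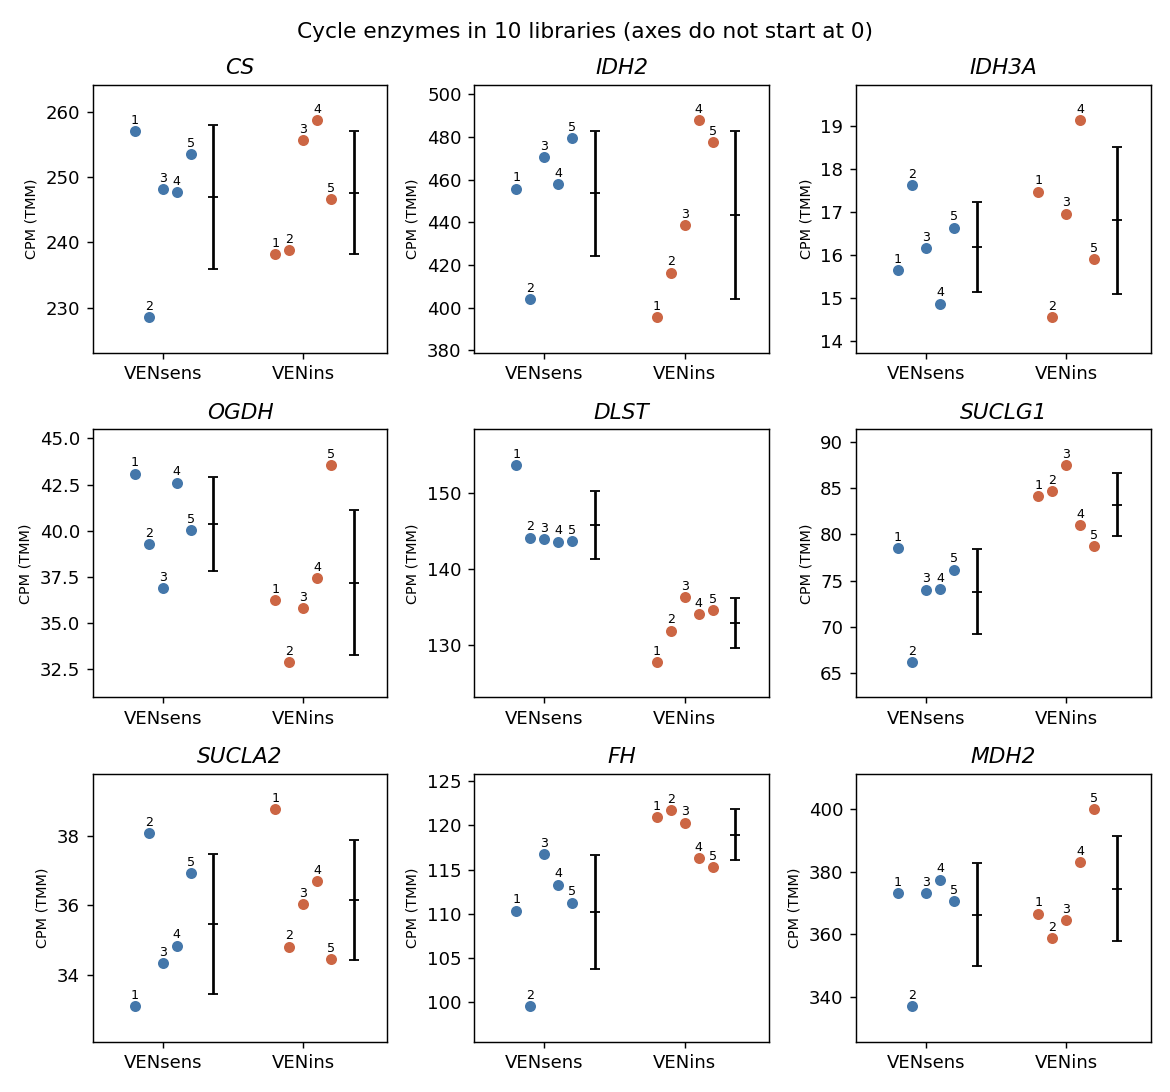
Level of each cycle enzyme in CPM (TMM) in the 5 VENsens and 5 VENins libraries, with line numbers beside the points and black bars for the mean and SD; the vertical axes do not start at 0. SUCLG1 and DLST are the members whose groups do not overlap.

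CS, citrate synthase, joins acetyl-CoA to oxaloacetate and so opens the cycle (ENSG00000062485, chr12:56271699-56300392, minus strand; positions of members are from GENCODE 29 on GRCh38). Its level in VENsens lines 1 to 5 was 257, 229, 248, 248 and 254 CPM. In VENins lines 1 to 5 it was 238, 239, 256, 259 and 247 CPM. The groups overlapped, with VENsens line 2 lowest and VENins line 4 highest. The means were 247 ± 11.0 and 248 ± 9.37 CPM (SD, n = 5 each). The fold change of CS was 0.0039 on the log2 scale (95% interval -0.10 to 0.11), with an adjusted p of 0.984 in edgeR's quasi-likelihood test.

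IDH2, the mitochondrial isocitrate dehydrogenase that uses NADP, is encoded at chr15:90083045-90102504 on the minus strand (ENSG00000182054). VENsens lines 1 to 5 held 456, 404, 470.4, 458 and 479 CPM of IDH2. VENins lines 1 to 5 held 396, 416, 439, 488 and 478 CPM. VENsens line 2 and VENins lines 1 and 2 were the low samples, and the groups overlapped. The log2 fold change of IDH2 was -0.035 (95% interval -0.15 to 0.080; edgeR's quasi-likelihood test, adjusted p = 0.805).

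IDH3A, a catalytic subunit of the isocitrate dehydrogenase that uses NAD, had the fewest counts of the members (ENSG00000166411, chr15:78131498-78171949, plus strand). Its values in VENsens lines 1 to 5 were 15.6, 17.6, 16.2, 14.9 and 16.6 CPM. In VENins lines 1 to 5 they were 17.5, 14.5, 17.0, 19.1 and 15.9 CPM. VENins line 4 was the highest and VENins line 2 the lowest of the 10 libraries, so the VENsens values fell inside the range of the VENins values. The coefficient of variation among VENins lines was 10.2%, while counting error for the lowest count of the gene, 343, amounts to 5.4%. IDH3A had a log2 fold change of 0.052 (95% interval -0.14 to 0.24; edgeR's quasi-likelihood test, adjusted p = 0.83). ACSBG1, on the opposite strand, shares 2608 exonic bases with IDH3A and held 91 counts over all libraries. Reads of the shared bases cannot be told apart without strand.

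IDH2 and IDH3A were then set against partner genes of the isocitrate step. The log2 CPM ratio of IDH3A to the regulatory subunit gene IDH3B was -1.80 ± 0.14 in VENsens and -1.85 ± 0.18 in VENins lines (exact permutation p = 0.69). Against IDH3G, the other regulatory subunit gene, it was -1.14 ± 0.18 and -1.11 ± 0.26 (exact permutation p = 0.849). IDH2 against IDH3A gave 4.80 ± 0.17 and 4.72 ± 0.16 (exact permutation p = 0.421), a difference of -0.085 that was -0.029 without VENins line 1 and -0.16 without VENsens line 2. IDH2 against the cytosolic IDH1 differed by 0.034 on the log2 scale between the groups (exact permutation p = 0.73). In each of these 4 ratios the groups overlapped.

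OGDH is the first component of the 2-oxoglutarate dehydrogenase complex and carries out the decarboxylation (ENSG00000105953, chr7:44606572-44709066, plus strand). VENsens lines 1 to 5 held 43.1, 39.3, 36.9, 42.6 and 40.0 CPM of OGDH. VENins lines 1 to 5 held 36.2, 32.9, 35.8, 37.4 and 43.6 CPM. VENins lines 1, 2 and 3 were below every VENsens line, but VENins line 5 was above them all. Group means of OGDH were 40.4 ± 2.54 and 37.2 ± 3.94 CPM (SD, n = 5 each). Its log2 fold change of -0.12 had a 95% interval of -0.27 to 0.025 (edgeR's quasi-likelihood test, adjusted p = 0.405). Without the lines numbered 5 it was -0.18.

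DLST, the succinyl transferase that forms the core of the same complex and carries its lipoyl group, lies on the plus strand of chromosome 14 (ENSG00000119689, chr14:74881891-74903745). Its level in VENsens lines 1 to 5 was 154, 144, 144, 144 and 144 CPM. In VENins lines 1 to 5 it was 128, 132, 136, 134 and 135 CPM. All 5 VENins lines were below all 5 VENsens lines, 4 of which held nearly the same level while line 1 was higher. The means of DLST were 146 ± 4.41 and 133 ± 3.28 CPM (SD, n = 5 each), a ratio of 0.912. On the log2 scale the fold change of DLST was -0.13 ± 0.053 (SE), with a 95% interval of -0.24 to -0.020, unadjusted p = 0.0236 and adjusted p = 0.234 in edgeR's quasi-likelihood test. The processed pseudogene DLSTP1 held 7484 counts beside 33474 for DLST, so reads of the copy and of the gene may be split between them. With its counts added the log2 fold change was -0.15.

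The OGDH and DLST subunits were compared within each library. The log2 CPM ratio of OGDH to DLST was -1.85 ± 0.076 in VENsens and -1.84 ± 0.14 in VENins lines (exact permutation p = 0.889). In CPM the ratio ran from 0.25 in VENins line 2 to 0.324 in VENins line 5, with the VENsens lines between. DLST against DLD, the third component of the complex, was -0.30 ± 0.086 and -0.38 ± 0.089 (exact permutation p = 0.198), with 3 of 5 VENins lines below all VENsens lines. The difference of -0.078 was -0.044 without VENsens line 1 and -0.047 without VENins line 1.

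SUCLG1 is the alpha subunit shared by both forms of succinyl-CoA synthetase, which makes a nucleoside triphosphate from succinyl-CoA (ENSG00000163541, chr2:84423523-84460045, minus strand). VENsens lines 1 to 5 held 78.5, 66.2, 74.0, 74.1 and 76.2 CPM of SUCLG1. VENins lines 1 to 5 held 84.1, 84.7, 87.5, 81.0 and 78.8 CPM. All VENins lines were above all VENsens lines, but the gap between VENsens line 1 and VENins line 5 was narrow. Its means were 73.8 ± 4.61 and 83.2 ± 3.40 CPM (SD, n = 5 each), a ratio of 1.13. SUCLG1 had a log2 fold change of 0.17 ± 0.059 (SE), with a 95% interval of 0.048 to 0.30, unadjusted p = 0.00991 and adjusted p = 0.177 in edgeR's quasi-likelihood test. Without the lines numbered 2, where the VENsens value was lowest, the log2 fold change was 0.13.

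SUCLA2, the beta subunit of the ATP-forming synthetase, lies at chr13:47745736-48037968 on the minus strand (ENSG00000136143). Its level in VENsens lines 1 to 5 was 33.1, 38.1, 34.3, 34.8 and 36.9 CPM, and VENins lines 1 to 5 held 38.8, 34.8, 36.04, 36.7 and 34.5 CPM. The groups overlapped, with VENins line 1 highest and VENsens line 1 lowest. The log2 fold change of SUCLA2 was 0.028 (95% interval -0.12 to 0.17; edgeR's quasi-likelihood test, adjusted p = 0.879).

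SUCLG2 encodes the beta subunit of the GTP-forming synthetase, the alternative partner of SUCLG1. The pseudogene SUCLG2P2 held 5620 counts beside 15690 for SUCLG2, so reads may be split between them. The ratio of SUCLG1 to SUCLG2 in CPM was 1.22, 0.955, 1.10, 1.11 and 1.16 in VENsens lines 1 to 5 and 1.39, 1.30, 1.29, 1.24 and 1.29 in VENins lines 1 to 5. Every VENins line was above every VENsens line, with VENsens line 2 alone below 1. The difference of the mean log2 ratios was 0.23 (0.25 with pseudogene counts added), with an exact permutation p of 0.00794, the smallest that 5 against 5 libraries allow. Adjusted over the 12 ratios compared it was 0.0952 (permutation test with Benjamini-Hochberg adjustment), and a lone ratio at the smallest p cannot go lower. It was 0.0476 without VENsens line 1, where the ratio of SUCLG1 to SUCLA2, which shares SUCLG1, had the same adjusted p. Its range over all alternatives was 0.0476 to 0.562. The upper end is from a sign-flip test over same-numbered lines, whose smallest p of 0.0625 (exact) cannot pass the threshold. Earlier values of SUCLG1 were known when the ratio of SUCLG1 to SUCLG2 was chosen, so its p-values are descriptive.

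The ratio of SUCLG1 to SUCLA2 differed by 0.15 on the log2 scale (exact permutation p = 0.0794, 0.405 after adjustment over the 12 ratios). It was above all VENsens lines in 2 of 5 VENins lines, and the groups overlapped. Without VENsens line 1 its adjusted p was 0.0476, in a range of 0.0476 to 0.698 over all alternatives, and without VENsens line 2 the difference was 0.081. SUCLA2 against SUCLG2 differed by 0.088 (exact permutation p = 0.135), with 3 of 5 VENins lines above all VENsens lines, and by 0.043 without VENins line 1. Pairs were chosen with earlier values of SUCLG1 and DLST known, so p-values of ratios that hold either gene are descriptive. CPM ratios are not corrected for gene length, so they compare libraries and not the amounts of 2 subunits.

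**Figure D2:**
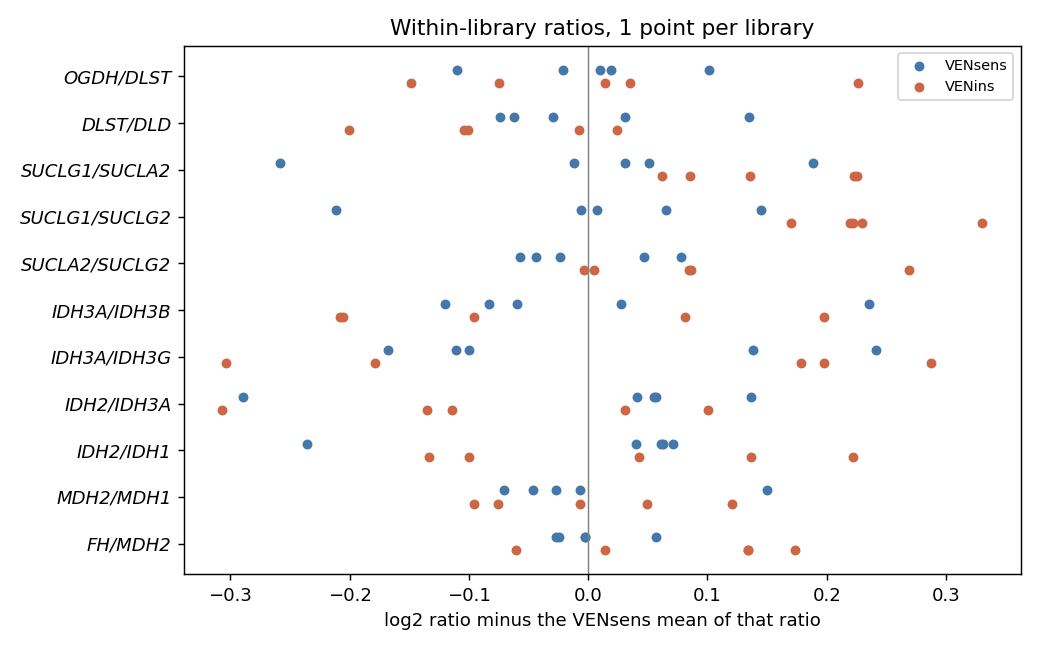
Log2 ratio of 2 genes in the same library, minus the VENsens mean of that ratio, for pairs of genes around the cycle; each point is 1 library. SUCLG1/SUCLG2 is the ratio in which every VENins point lies to the right of every VENsens point.

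FH, fumarase, adds water to fumarate to give malate (ENSG00000091483, chr1:241497603-241519761, minus strand). Its values in VENsens lines 1 to 5 were 110.3, 99.5, 117, 113 and 111 CPM. In VENins lines 1 to 5 they were 121, 122, 120.3, 116 and 115 CPM. VENins lines 1, 2 and 3 were above every VENsens line, whereas lines 4 and 5 fell below VENsens line 3. The means of FH were 110.2 ± 6.47 and 119 ± 2.90 CPM (SD, n = 5 each). Its log2 fold change was 0.11 ± 0.056 (SE), with a 95% interval of -0.0086 to 0.23 and an adjusted p of 0.345 in edgeR's quasi-likelihood test. It was 0.067 without the lines numbered 2. The processed pseudogene FHP1 held 3777 counts beside 27543 for FH, and the log2 fold change with them added was 0.11.

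MDH2, the mitochondrial malate dehydrogenase, regenerates oxaloacetate and closes the cycle (ENSG00000146701, chr7:76048051-76067508, plus strand). VENsens lines 1 to 5 held 373, 337, 373, 377 and 371 CPM of MDH2. VENins lines 1 to 5 held 367, 359, 365, 383 and 399.8 CPM. VENsens line 2 was the low sample and VENins line 5 the high one, with overlapping groups. MDH2 had a log2 fold change of 0.032 (95% interval -0.073 to 0.14; edgeR's quasi-likelihood test, adjusted p = 0.799). The log2 CPM ratio of MDH2 to the cytosolic MDH1 was 1.51 ± 0.087 in VENsens and 1.51 ± 0.089 in VENins lines (exact permutation p = 0.976). FH against MDH2 was -1.73 ± 0.034 in VENsens and -1.65 ± 0.098 in VENins lines (exact permutation p = 0.127), with 3 of 5 VENins lines above all VENsens lines and VENins line 5 below them all.

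**Figure D3:**
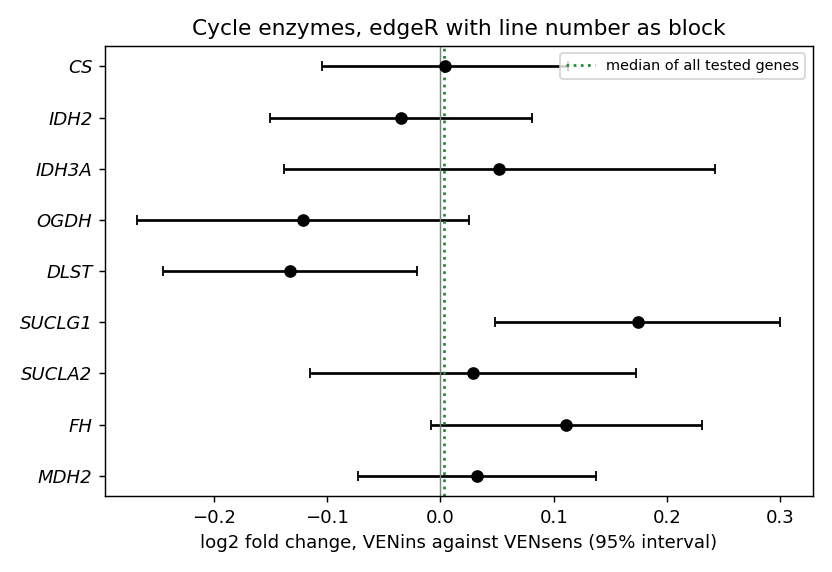
Log2 fold change of each cycle enzyme, VENins against VENsens, with its 95% interval from edgeR with the line number as a block; the dotted line is the median of all tested genes. The intervals of DLST (-0.24 to -0.020) and SUCLG1 (0.048 to 0.30) lie on 1 side of 0, and no member passed the adjusted threshold.

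The counts of the members ran from 343 to 13355 per library, and counting error at the lowest count of each member was at most 5.4%. The coefficient of variation among lines of a group ran from 2.44% for FH in VENins to 10.6% for OGDH in VENins. The widest interval bounds over all 9 members were -0.27 for OGDH and 0.30 for SUCLG1 on the log2 scale.

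The 9 members together made up 1489 ± 64.3 CPM of a VENsens library and 1491 ± 60.3 CPM of a VENins library (SD, n = 5 each). VENsens line 2 had the lowest sum, 1374 CPM, and VENins line 4 the highest, 1554 CPM. VENsens line 2 was the lowest VENsens line in CS, IDH2, SUCLG1, FH and MDH2 and the highest in IDH3A and SUCLA2. VENsens line 2 was also the library with the fewest counts. The part of depth in its low values was not tested.

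Levels of different members were compared as CPM per kb of merged exons. Lengths are from GENCODE 29 on GRCh38, while counting used GRCh37, so they may differ from the exons that were counted. In VENsens lines the order from high to low was IDH2, MDH2, FH, CS, DLST, SUCLG1, OGDH, SUCLA2 and IDH3A. IDH2 stood at 161 ± 10.4, FH at 51.5 ± 3.02, SUCLG1 at 17.2 ± 1.08 and IDH3A at 2.37 ± 0.15 CPM per kb (SD, n = 5 each). No neighbours in this order overlapped among the 5 VENsens libraries. For IDH3A, 2608 of the 6832 exonic bases are shared with ACSBG1. Reads there may have been left uncounted, so its level per kb and its gap to SUCLA2 are uncertain. The order depended on the length used. Per kb of the longest coding transcript, CS (80.8) moved above FH (61.3) and SUCLA2 (10.7 ± 0.61) above OGDH (9.66 ± 0.61). The ranges of SUCLA2 and OGDH overlapped there, and in VENsens line 1 OGDH was the higher. On that scale IDH2 at 168 ± 10.9 and MDH2 at 166 ± 7.47 did not differ beyond their spread, nor did DLST at 51.4 ± 1.56 and SUCLG1 at 50.04 ± 3.13.

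**Figure D4:**
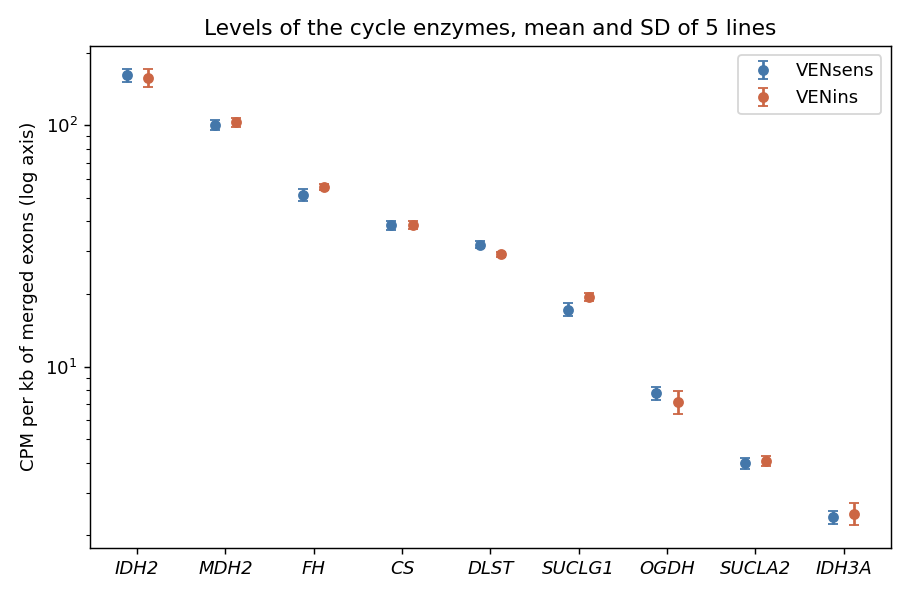
Level of each cycle enzyme as CPM per kb of merged exons on a log axis, as mean and SD of 5 VENsens and 5 VENins lines. IDH2 is highest at 161 and IDH3A, whose length includes bases shared with ACSBG1, lowest at 2.37 CPM per kb in VENsens lines.

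Members varied together across the 10 libraries to different degrees. Log2 CPM of SUCLG1 and FH had a Pearson r of 0.882, CS and IDH2 one of 0.779, and IDH2 and MDH2 one of 0.744. DLST had r = -0.599 with SUCLG1 and -0.644 with FH. These values are descriptions over 10 libraries of both groups, so differences between the group means enter them, as does the scaling that genes of a library share.

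For each member except IDH2, the protein-coding gene with the largest r over the 10 libraries was looked up among 11927 others. Each r is the highest of that many in 10 libraries, so a high value follows from the search itself. It was FIZ1 for MDH2 (r = 0.988), ATXN10 for SUCLG1 (0.984), KRBA1 for OGDH (0.981) and PHF5A for FH (0.97). For CS it was HARS (0.948) and for DLST LDLRAD3 (0.942). SUCLA2 was most like CCSAP (0.93) and IDH3A most like ZNF367 (0.905).

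In 4 members at least 3 of 5 VENins lines lay beyond every VENsens line, namely OGDH, DLST, SUCLG1 and FH, beside 35.7% of all tested genes. Bases upstream of the RefSeq start of DLST and FH are shown, as members of this kind whose window lies almost wholly outside GENCODE exons. They are from RefSeq on GRCh38.p14, read 5′ to 3′ on the gene's strand, in lower case with motif matches in capitals. Of the 9 members, 8 were in the promoter table. The DLST window lies on the plus strand at chr14:74881666-74881915, of which the last 25 bases are in a GENCODE exon. The FH window lies on the minus strand at chr1:241519756-241520005, with 6 bases in an exon. The SUCLG1 window is not shown, since 200 of its 250 bases lie in a GENCODE exon.
DLST: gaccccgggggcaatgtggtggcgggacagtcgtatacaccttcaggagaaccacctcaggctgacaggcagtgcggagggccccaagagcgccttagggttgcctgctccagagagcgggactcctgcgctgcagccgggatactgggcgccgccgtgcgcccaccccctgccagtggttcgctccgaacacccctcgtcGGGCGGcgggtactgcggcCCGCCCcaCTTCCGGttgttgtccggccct
FH: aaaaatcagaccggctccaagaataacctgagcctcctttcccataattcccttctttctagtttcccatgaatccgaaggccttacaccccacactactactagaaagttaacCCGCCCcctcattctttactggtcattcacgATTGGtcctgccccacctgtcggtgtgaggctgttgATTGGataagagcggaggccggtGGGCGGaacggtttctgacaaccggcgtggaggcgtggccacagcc

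The capitals mark short motifs searched on both strands in the 250 bases before each start, with no match overlapping another in these genes. The GC box GGGCGG was found in 5 of 8 members, CS, IDH3A, DLST, SUCLA2 and FH, beside 42.6% of all 35116 promoters of this length. The CCAAT box CCAAT was found in CS, SUCLA2 and FH, beside 32.01% of all promoters. The ETS core CCGGAAG was found in DLST and MDH2, beside 8.52%. The DLST match, 22 bases before the start, lies in the part of its window that is in a GENCODE exon. The nuclear receptor site AAGGTCA was found in SUCLA2, beside 3.44%. The NRF1 core GCGCATGCG was found in no member, beside 1.64% of all promoters. The SUCLG1 and IDH2 windows held none of these 5 motifs. The IDH2 window, chr15:90100622-90100871 on the minus strand, lies inside the gene as annotated by GENCODE and not before its annotated start. A match says only that these letters are present.

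The 53 other genes around the cycle were read from the same fit. Of them 49 passed the filter and 0 had an adjusted p under 0.05 in edgeR's quasi-likelihood test, beside 0.197% of all tested genes. An unadjusted p under 0.05 was reached by 8, or 16.3%, beside 16.2% of all tested genes. The median log2 fold change of the 49 was 0.018, beside 0.0035 for all tested genes. In VENins lines 51.1% of all tested genes were higher, and no list was tested against this share. Of the 10 genes of the rest of the cycle, 7 were higher and 3 lower, with a median of 0.083. The smallest p among them belonged to MRPS36, the small subunit that ties DLD to the 2-oxoglutarate complex (log2 fold change 0.25, adjusted p = 0.123 in edgeR's quasi-likelihood test), whose pseudogene MRPS36P1 held 3887 counts beside 5392. SDHB (0.13) and SDHD (0.12) of complex II followed.

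Around the entry of pyruvate, 5 genes were higher and 8 lower, with a median of -0.070. PDPR, a regulator of pyruvate dehydrogenase phosphatase, was at -0.32 (adjusted p = 0.0761), and MPC2, a subunit of the mitochondrial pyruvate carrier, at 0.29 (adjusted p = 0.0841), both in edgeR's quasi-likelihood test. The counterparts outside the cycle had a median of -0.055, with DHTKD1, a relative of OGDH, at -0.14. The medians were -0.011 for side entries and exits, 0.10 for carriers of cycle intermediates and 0.050 for lipoylation and modification.

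**Figure D5:**
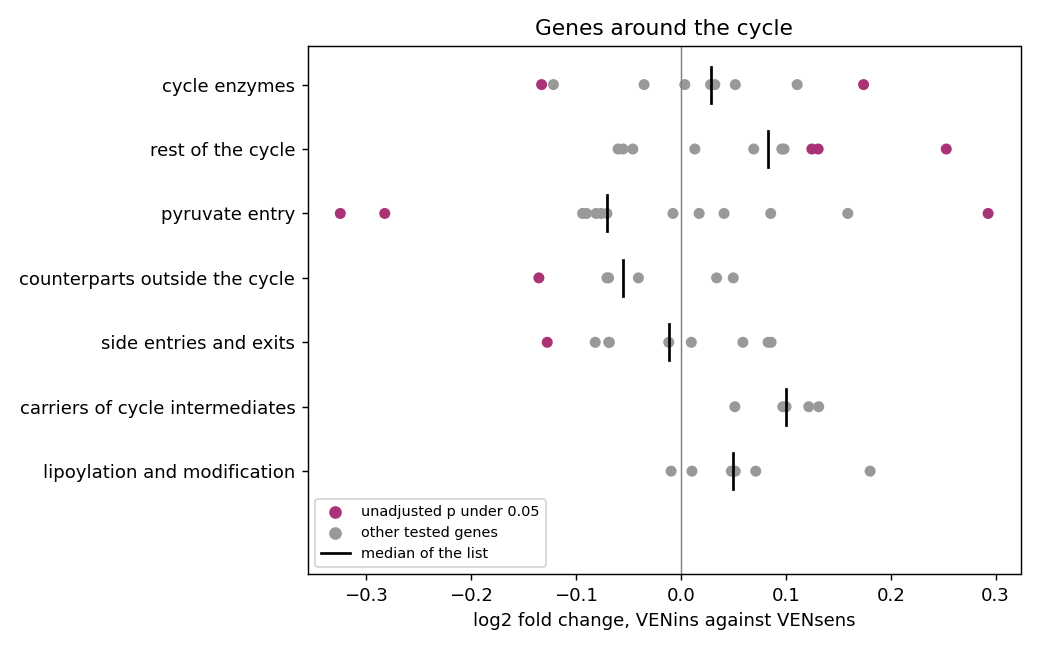
Log2 fold change, VENins against VENsens, of each tested gene in 7 lists around the cycle; purple points have an unadjusted p under 0.05 and black bars are list medians. The cycle enzymes (median 0.028) spread to both sides of 0.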

How the data were processed

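RNA of 10 RS4;11 lines was sequenced after library preparation with a TruSeq kit that does not mark strand, and the authors deposited the count of reads per gene without normalization. The submitters' processing notes name bcl2fastq 2.20.0.422, Bowtie2 2.3.5.1, SAMtools 1.9, HTSeq 0.9.1 and the builds hg19 and GRCh37. Strand setting and annotation release are not given in the sources used here. Non-gene lines held 45.8% to 47.3% of reads and were left out. Counts were filtered with filterByExpr (minimum 10, total 15), scaled by TMM and tested in R 4.3.3 with edgeR 4.0.16 (quasi-likelihood F test, line number and condition, Benjamini-Hochberg). Intervals are 95%. DESeq2 1.42.0 was an alternative; others were scalings, filters, length and GC correction, added pseudogene counts and left-out lines. Ratios used log2 CPM with prior count 2 and two-sided exact permutation tests. Plots used Python 3.11.15 and matplotlib 3.10.9. The scripts were tested on simulated data. GENCODE 29 named 52526 of 63677 identifiers. Named genes were the 9 members and, from other lists, up to 3 genes with the smallest p. Members, lists and ratios were chosen with earlier results of these data known. The study describes a paired analysis, so the line number is a block. Some results, among them 1 of the 12 ratios, are not reported here.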

Additional observations from a re-analysis of the deposited data

Results flagged for a closer look

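In 42 groups of 5 libraries, the highest or lowest library was compared with the rest of its group by Dixon's test at 95%, and 6 groups had a library that stood apart. Chance gives about 1 in 20 groups, or 2.1 of these 42, but the groups share genes and libraries and are not independent. DLST in VENsens line 1 was 154 CPM, while the other VENsens lines held 143.6 to 144 CPM. MDH2 in VENsens line 2 was 337 CPM, beside 371 to 377 CPM in the others. The same library had the lowest VENsens log2 ratio of IDH2 to IDH3A, 4.51, and of IDH2 to IDH1, 2.03. VENsens line 1 had a log2 ratio of MDH2 to MDH1 of 1.66, the highest of its group, and VENsens line 3 a log2 ratio of FH to MDH2 of -1.68, likewise the highest.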

How the results depend on the processing

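The line numbers gave no sign of pairing the libraries: same-numbered libraries had deviations from their group means that correlated with r from -0.10 to 0.028, and 0 libraries correlated best with their own number. Without this block edgeR called 149 genes in place of 33, and 0 members. Genes called were 217 with DESeq2 and the block, 739 with DESeq2 without it, 664 without a filter on low counts and 155 with length and GC correction. Leaving out the lines of 1 number at a time gave 6 (without number 2) to 331 (without number 4). Members called were 2 with DESeq2 without the block and 0 under every other alternative. Ratios with an adjusted p under 0.05 were 0 to 2 when 1 library was left out, with 2 that share SUCLG1 without VENsens line 1.

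Of the log2 fold changes of members under the alternatives, 117 kept direction and side of the threshold, 2 came to pass it and 7 changed sign. CS was -0.0022 with library size alone. When the lines of 1 number were left out, CS ranged from -0.011 to 0.032 and was -0.0064 without number 3. IDH2 ranged from -0.067 to 0.0076, IDH3A from -0.027 to 0.13, SUCLA2 from -0.020 to 0.068, MDH2 from 0.013 to 0.048, FH from 0.067 to 0.13 and OGDH from -0.18 to -0.088. With length and GC trends removed CS was 0.052, SUCLA2 0.074 and IDH3A 0.088. Of the ratio differences 143 kept direction and side (12 of them in a sign-flip test that could not pass), 2 came to pass and 11 changed sign, each when 1 library was left out. They ranged from -0.032 to 0.036 for MDH2/MDH1, -0.11 to 0.013 for IDH3A/IDH3B, -0.025 to 0.076 for IDH2/IDH1, -0.044 to 0.050 for OGDH/DLST and -0.026 to 0.12 for IDH3A/IDH3G. Without a change of sign, IDH2/IDH3A ranged from -0.16 to -0.029, DLST/DLD from -0.10 to -0.044, SUCLA2/SUCLG2 from 0.043 to 0.11, SUCLG1/SUCLA2 from 0.081 to 0.19 and FH/MDH2 from 0.055 to 0.11. The cause of these changes was not tested.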
